A study of Rattus norvegicus with 42 samples.

Results

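The genes described here are 9 transcription factors that define the hepatocyte programme: Cebpa, Cebpb, Cebpd, Hnf4a, Foxa2, Foxa3, Onecut1, Hhex and Prox1. They were taken by gene name, with earlier results of these data known. They are 9 of the 26258 genes named in the annotation of the pSer2 Pol2 data, and their annotated transcripts gave 20 gene regions, 11 of them distinct, of 60999. GR regions were assigned to them where the centre lay within 50 kb of one of their transcription start sites (TSS), which held for 15 of 3981 GR regions. Only 6 of the 9 had a row among the 22929 rows of RNA counts. RNA of Cebpa, Cebpb and Cebpd was not analysed here.

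All rats were adrenalectomised male Sprague Dawley animals given an intravenous infusion of corticosterone (CORT, the main glucocorticoid of the rat) or of vehicle, so endogenous adrenal steroid was missing from controls and treated animals alike. After surgery the animals also received dexamethasone once and low CORT in the drinking water, which was replaced by saline before the infusion. CORT was delivered either as hourly pulses (PULS) or as a constant infusion of matched dose (CONS). Livers were taken at 140 min, the peak of the third pulse (PEAK_140, CONS_140), or at 180 min, the nadir after it (NADIR_180, CONS_180). Binding of the glucocorticoid receptor (GR) and occupancy of RNA polymerase II phosphorylated at serine 2 of its tail (pSer2 Pol2, the elongating form) were each measured by ChIP-Seq in 2 libraries per group. Each library pooled chromatin of 6 rats. The vehicle group (VEH) consisted of 1 library at 140 min and 1 at 180 min, both with pulsatile vehicle. RNA-Seq at 180 min had 3 libraries in each of 4 groups, PULS VEH, PULS CORT, CONS VEH and CONS CORT. The labels do not say whether these came from separate animals, and p-values measure the spread between these libraries. Serial numbers in the sample titles differed by group, and the labels do not say what they stand for. In GR, all PULS libraries had far lower numbers than the VEH and CONS libraries. In pSer2 Pol2 this held for NADIR_180 and library 1 of PEAK_140, whereas library 2 of PEAK_140 was close to VEH. In RNA, the CORT groups shared a narrow range of numbers, outside that of either vehicle group. Where compared groups differ in series, that cannot be told apart from the infusion.

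Hepatocytes keep their identity through a small network of transcription factors that bind and activate one another's genes as well as the genes of liver function. Cebpa, Cebpb and Cebpd belong to the C/EBP family of leucine zipper proteins. Cebpa sustains metabolic genes, whereas Cebpb and Cebpd are inducible members of the acute phase response. Hnf4a is a nuclear receptor central to the network, Foxa2 and Foxa3 are forkhead proteins able to bind compacted chromatin, and Onecut1, Hhex and Prox1 are homeodomain proteins needed early in liver development and retained in the adult. GR is a ligand-activated receptor that binds chromatin largely while hormone is present, often at sites that such liver factors keep open.

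Library sizes were 2051977 to 6715803 tags for GR, 4938473 to 9326927 tags for pSer2 Pol2 and 3956379 to 7777219 assigned reads for RNA. Summed RNA of 6 hepatocyte markers was 136000 to 188000 CPM (read counts scaled to the effective library size) across the 12 libraries. By contrast, the 3 of 5 cholangiocyte markers with more than 10 reads (Krt7, Epcam, Spp1) summed to 8.31 to 15.8 CPM, with PULS CORT (11.5 to 15.8 CPM) above PULS VEH (8.88 to 11.2 CPM), and Krt7 was at 0 in at least 1 library of PULS CORT and of CONS CORT. Summed markers of Kupffer cells (4 of 5) were 208 to 375 CPM and of endothelial cells (4 of 5) 241 to 339 CPM, and each CORT group overlapped its vehicle group. The sum of the 5 stellate cell and fibroblast markers was lower with CORT, but single markers differed in direction. It was 50.2 to 65.8 CPM in PULS CORT against 71.2 to 89.8 CPM in PULS VEH. In CONS CORT it was 43.3 to 46.7 CPM, against 63.0 to 86.4 CPM in CONS VEH. With CONS CORT, Pdgfrb was called lower in edgeR (4.75% of all genes) and Dcn higher (4.45%). Dcn was 3.30, 5.07 and 3.08 CPM in CONS VEH and 12.4, 7.04 and 5.91 CPM in CONS CORT. The 3 of 4 erythroid markers summed to 320 to 381 CPM in PULS CORT, above the 173 to 309 CPM of PULS VEH, and their sums overlapped between the CONS groups. The part of these differences in the RNA results was not tested. In bulk liver, fewer cells of a type and less RNA per cell cannot be told apart.

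GR was bound within 50 kb of 5 of the 9 genes. Cebpa had 5 such regions, Hhex 4, Hnf4a 3, Prox1 2 and Cebpb 1, whereas Cebpd, Foxa2, Foxa3 and Onecut1 had none. In the authors' annotation, which sets no limit of distance, a member was the nearest gene of 18 GR regions. The values are log2 tag numbers after input subtraction and variance stabilisation, on which a region without tags lies near -1. Differences of these values are therefore compressed where a group is near that floor. A region was called where the adjusted p was below 0.05 in limma and the change exceeded 1.5-fold. The regions are sites of enrichment that the authors found in the groups and merged. Of the 3981, 3209 overlapped a PEAK_140 peak, 72 a NADIR_180 peak and 116 a VEH peak. CONS_140 peaks overlapped 1723 of the regions and CONS_180 peaks 2428. Higher GR in PEAK_140, CONS_140 or CONS_180 than in VEH or NADIR_180 was thus in part set by how the regions were chosen.

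The question of which of these sites GR occupied at the crest of a pulse was addressed by PEAK_140 against VEH. GR was higher at 12 of the 15 regions, with at least 1 at each of the 5 genes, and lower at none. Over all GR regions 78.6% were called higher and 80.5% were called in either direction, so the share near these genes was close to that of the background. The median difference was 4.36 near these genes and 4.17 over all regions, and when each library was centred on its own median, which removes that common shift, 7 of the 12 took the opposite sign.

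**Figure D1:**
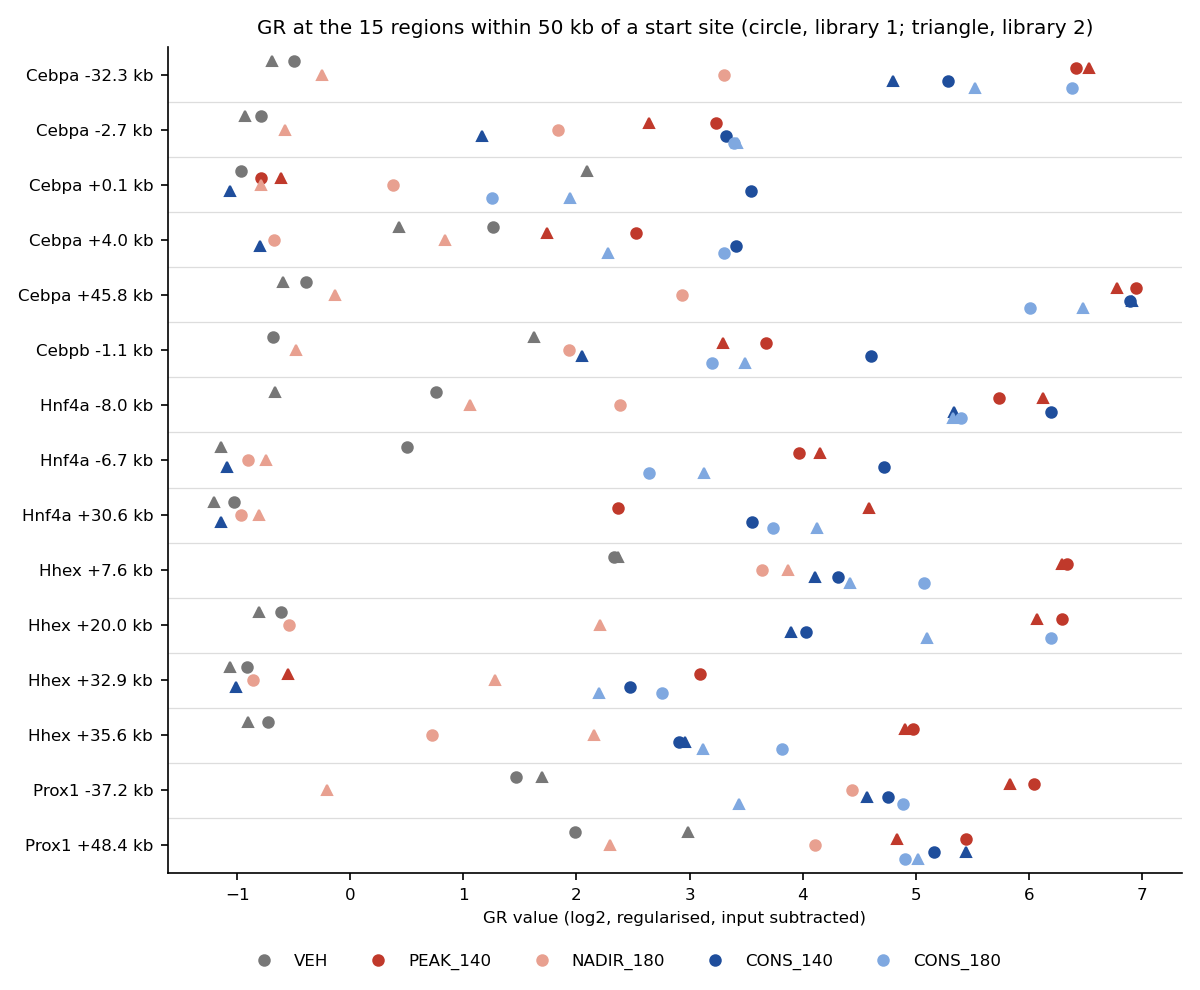
GR values (log2, x axis) in the 10 libraries at the 15 regions within 50 kb of a start site (y axis, gene and distance in kb), with circles for library 1 and triangles for library 2. At the region 45799 b downstream of the Cebpa start the PEAK_140, CONS_140 and CONS_180 libraries sit between 6.01 and 6.95 and the VEH libraries at -0.39 and -0.60, whereas at the Cebpa start site the groups overlap.

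In PEAK_140 the distal Cebpa sites had the highest GR values of the 15 regions. At the region centred 45799 b downstream of the Cebpa start site (rn6 chr1:91408979-91409604, intergenic and closer to the start of Slc7a10), values were -0.39 and -0.60 in VEH, 6.95 and 6.78 in PEAK_140, 6.90 and 6.91 in CONS_140, 6.01 and 6.48 in CONS_180, and 2.93 and -0.13 in NADIR_180. All 6 libraries of PEAK_140, CONS_140 and CONS_180 lay above both NADIR_180 libraries and both VEH libraries. The PEAK_140 difference from VEH was 7.36 ± 0.84 (SE; adjusted p = 0.000117), and PEAK_140 exceeded NADIR_180 by 5.47 ± 0.84 (adjusted p = 0.00100). The region -32278 b from the start (chr1:91330891-91331538, intergenic) held 6.42 and 6.53 in PEAK_140 against -0.50 and -0.70 in VEH, a difference of 7.07 ± 0.99 (adjusted p = 0.000300). Its NADIR_180 libraries read 3.31 and -0.25, so the spread within the nadir pair was wider than in any other group at that site.

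GR close to the Cebpa gene was weaker. The region -2730 b from the start rose by 3.80 ± 0.98 in PEAK_140 (adjusted p = 0.00657). The promoter region itself (chr1:91363323-91363850, centred 94 b past the start site) was at -0.97 and 2.09 in VEH and at -0.79 and -0.62 in PEAK_140 and was called in no comparison. Nor was the region 4025 b downstream. The authors' peaks, described below, covered the promoter region in CONS_140, where its libraries read 3.54 and -1.06. They covered the region 4025 b downstream in CONS_180 (3.30 and 2.28). At Cebpb the only nearby region, -1079 b from the start (chr3:164423124-164423749), was at -0.69 and 1.63 in VEH, 3.68 and 3.30 in PEAK_140, 4.6 and 2.05 in CONS_140 and 3.19 and 3.49 in CONS_180. It was called in PEAK_140 alone among the comparisons with VEH (3.02 ± 1.15, adjusted p = 0.0359).

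At Hnf4a, 2 regions lay within the gene between its upstream and downstream start sites, -7982 b and -6715 b from the latter. The first (chr3:159928562-159929187, intronic) was at 0.76 and -0.66 in VEH and between 5.33 and 6.20 in the 6 libraries of PEAK_140, CONS_140 and CONS_180, with a PEAK_140 difference of 5.88 ± 0.67 (adjusted p = 0.000118). The second (4.38 ± 1.56, adjusted p = 0.0278) and an intergenic region 30587 b downstream (4.6 ± 1.38, adjusted p = 0.0134) rose with a wider error. That intergenic region lay closer to the start of Ttpal.

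Hhex, a homeodomain repressor of early liver, had 4 regions, all downstream of its start site. At 19988 b (chr1:256121579-256122204) GR was -0.61 and -0.81 in VEH, 6.29 and 6.07 in PEAK_140, -0.55 and 2.21 in NADIR_180, 4.03 and 3.90 in CONS_140 and 6.20 and 5.10 in CONS_180. The PEAK_140 difference was 6.89 ± 0.86 (adjusted p = 0.000170). The regions at 7637 b and 35645 b rose by 3.97 ± 0.42 (adjusted p = 8.34e-05) and 5.76 ± 0.66 (adjusted p = 0.000118), and the one at 32919 b was not called. Of the 4, the region at 7637 b had the highest values in VEH, 2.33 and 2.36, although no VEH peak covered it. Prox1 had 1 region on either side, of which the downstream one had another gene, LOC498308, as its nearest. That -37174 b from the start was at 1.47 and 1.69 in VEH and at 6.05 and 5.83 in PEAK_140 (4.36 ± 1.25, adjusted p = 0.0108), and that 48375 b downstream was at 1.98 and 2.99 in VEH and at 5.45 and 4.83 in PEAK_140 (2.65 ± 0.65, adjusted p = 0.00528).

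At the nadir, GR at these sites was no longer called. NADIR_180 against VEH gave 0 of 15 regions, with 7.79% of all regions called. The difference was still positive at 12 regions and negative at 3, with a median of 1.20 beside 0.84 over all regions. At Hhex it was 1.41 ± 0.42 at 7637 b (adjusted p = 0.0894 in limma) and 2.26 ± 0.66 at 35645 b (adjusted p = 0.0800). PEAK_140 exceeded NADIR_180 at 10 of 15 regions (69.3% of all regions). Without library 2 of NADIR_180, 4 regions were called against VEH and 6 against PEAK_140, and without library 1 of NADIR_180, 2 were called against VEH. Without library 2 of PEAK_140, 6 differed between PEAK_140 and NADIR_180. In 7 regions the NADIR_180 pair differed by more than 2 log2 units, and library 1 was the higher in 5 of them.

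With constant CORT, GR was called at both times. CONS_140 was higher than VEH at 8 of 15 regions (65.1% of all regions) and CONS_180 at 9 (68.2%), of which 8 were shared. CONS_180 exceeded NADIR_180 at 7 of 15 (49.6%), and without library 1 or library 2 of CONS_180 that count was 3 or 4. Neither PEAK_140 against CONS_140 (0.0502% of all regions) nor CONS_140 against CONS_180 (0% of all regions) gave a call near these genes by limma. At an unadjusted p below 0.05, 194 of 3981 regions differed between the CONS times. Without library 1 of CONS_140, 3 of the 15 regions differed between PEAK_140 and CONS_140. The 2 CONS_140 libraries stood apart at 5 regions, where library 1 read 2.47 to 4.72 and library 2 read -0.80 or lower. Library 1 was also the deeper, with 6715803 against 3663062 tags, and the part of depth in this gap was not tested. The 4 comparisons with VEH share both VEH libraries.

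**Figure D2:**
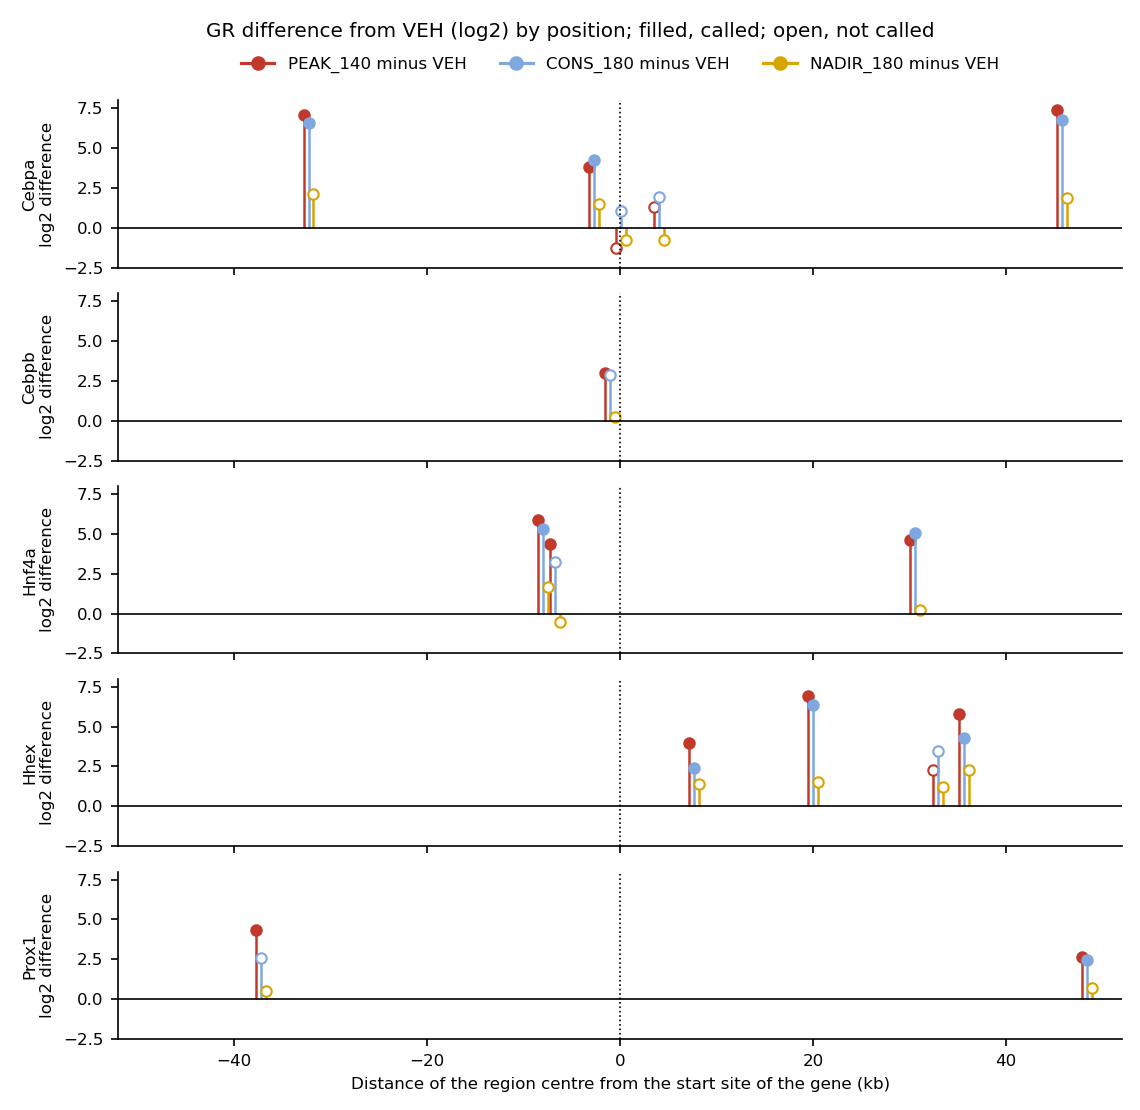
Difference in GR from VEH (log2, y axis) for PEAK_140, CONS_180 and NADIR_180 against the distance in kb from the start site of each gene (x axis, the groups offset sideways for visibility), with filled points for called regions. PEAK_140 points are filled at 12 of 15 regions and NADIR_180 points at none, and the tallest stand 45799 b and -32278 b from Cebpa.

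The authors' peak lists, 1 for each group, were made by calling enriched sites and merging those shared between replicates. Peaks covered 12 of the 15 regions in PEAK_140, 13 in CONS_180, 7 in CONS_140 and 0 in both NADIR_180 and VEH. Over all regions the shares were 80.61%, 60.99%, 43.28%, 1.81% and 2.91%, respectively.

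pSer2 Pol2 was next compared over the gene bodies, limited to the first 10 kb. Values differed in order from gene to gene. In CONS_140 the 3 C/EBP genes stood above every other group, Onecut1 stood below every other group, and Foxa2 and Prox1 had their lowest means in PEAK_140. The share of all genes with such separation between the libraries of groups was not counted. The CONS_140 libraries were also the deepest of this assay, with 9326927 and 8923921 tags, and the part of depth was not tested. Over all regions the median difference was 0.15 for CONS_140 against VEH and -0.26 for PEAK_140 against CONS_140. Without a replicate block 1 member was called, Cebpb in CONS_140, and the other differences below did not pass. Because same-numbered libraries deviated together, each comparison was also fitted with the library number as a replicate block, and both values are given where they differ in call. The pairing is a hint from the data rather than from the design, and the VEH libraries, which carry no number and were taken at different times, entered that fit outside the block. For the 9 members, library 1 was above library 2 in 34 of 36 pairs of the numbered groups. In VEH, where the numbers pair nothing, the 140 min library was also above the 180 min library for 8 of the 9. The order of the libraries is thus weak ground for the pairing, and its share over all genes was not counted.

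**Figure D3:**
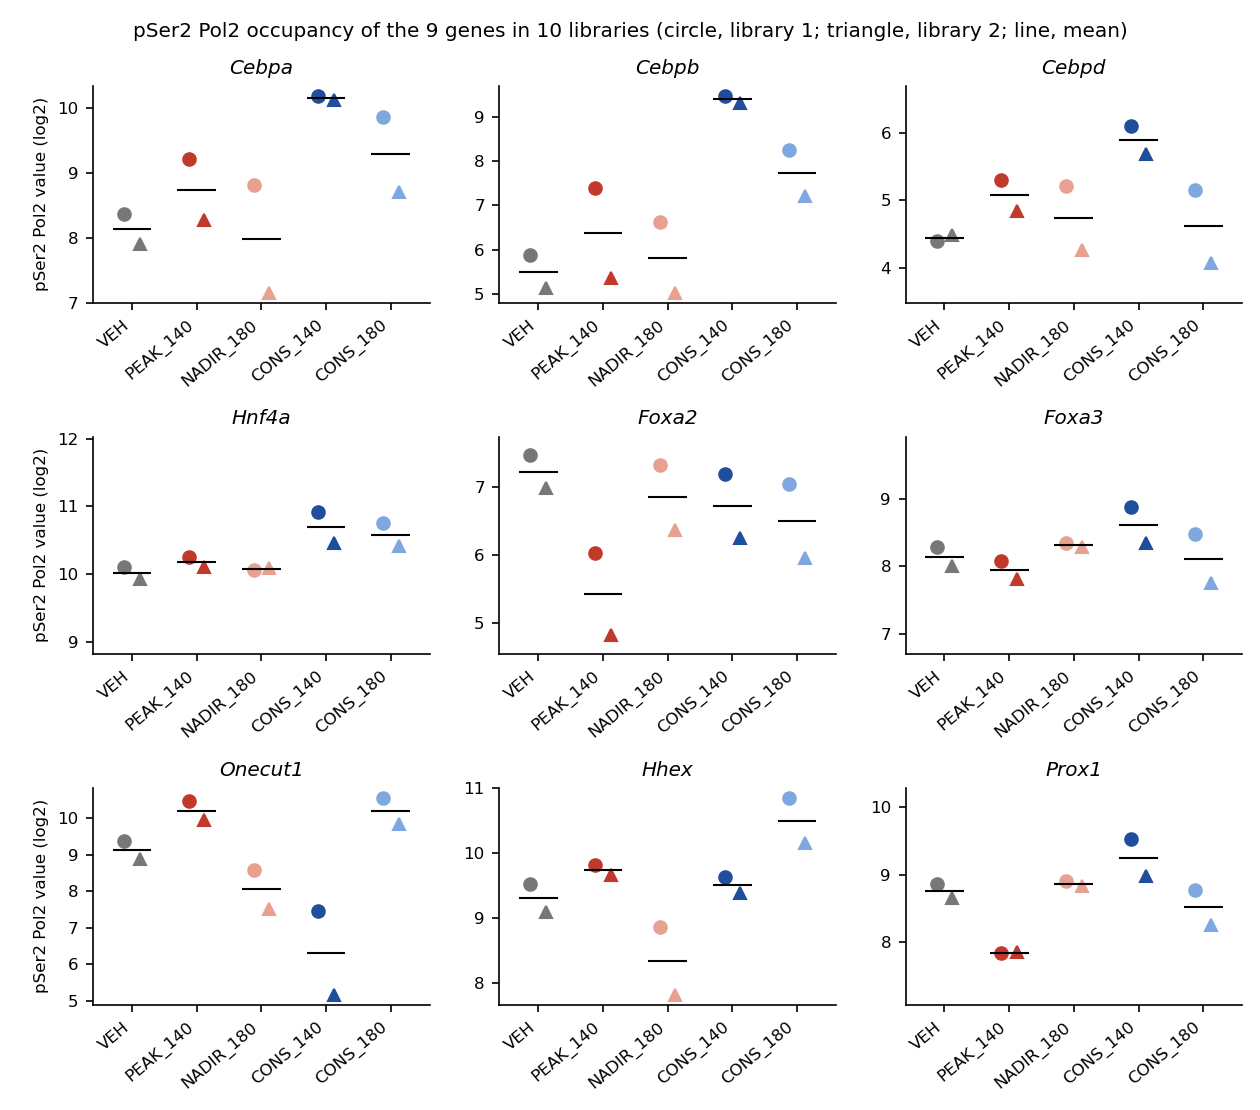
pSer2 Pol2 values (log2, y axis) of the 9 genes in the 10 libraries by group (x axis), with circles for library 1, triangles for library 2 and lines for the group mean. Onecut1 runs from 5.16 in a CONS_140 library to 10.56 in a CONS_180 library, whereas the Hnf4a libraries stay between 9.93 and 10.92.

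Of the C/EBP genes, Cebpb rose with constant CORT at 140 min. Cebpb (chr3:164424515-164425910, single exon gene, 1396 b) was at 5.88 and 5.14 in VEH, 7.40 and 5.36 in PEAK_140, 6.62 and 5.03 in NADIR_180, 9.47 and 9.31 in CONS_140 and 8.25 and 7.22 in CONS_180. Both CONS_140 libraries were above all others. The difference from VEH was 3.88 ± 0.68 (adjusted p = 0.0226), in a comparison in which 0.824% of genes were called. It stayed called with the replicate block (adjusted p = 0.00182) but was lost without either VEH library, without library 1 of CONS_140 and without any 1 of the NADIR_180 or CONS_180 libraries, with adjusted p between 0.0883 and 0.527.

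Cebpa (chr1:91363492-91366164) was at 8.36 and 7.91 in VEH, 9.21 and 8.27 in PEAK_140, 8.82 and 7.15 in NADIR_180, 10.19 and 10.12 in CONS_140 and 9.87 and 8.71 in CONS_180. Cebpd (chr11:89008008-89009146) followed the same order of groups at 140 min, with 4.40 and 4.49 in VEH, 5.30 and 4.85 in PEAK_140 and 6.10 and 5.69 in CONS_140. For both genes the CONS_140 pair exceeded the other 8 libraries. The CONS_140 difference from VEH was 2.02 for Cebpa (adjusted p = 0.219, and 0.0277 with the replicate block) and 1.46 for Cebpd (adjusted p = 0.295, and 0.0323 with the block). With the block 1.38% of genes were called in that comparison, 4 of the 9 members among them. Between infusions at 140 min, Cebpb was lower in PEAK_140 than in CONS_140 by -3.01 (adjusted p = 0.140, and 0.0266 with the block).

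The promoters of Cebpa and Cebpb are shown because transcription of both genes was highest in the same group while the GR regions beside them differed. They are the 250 bases before the start in RefSeq (GRCr8, plus strand, chr1:96896334-96896583 and chr3:176816755-176817004), with TATA boxes in capitals.
Cebpa: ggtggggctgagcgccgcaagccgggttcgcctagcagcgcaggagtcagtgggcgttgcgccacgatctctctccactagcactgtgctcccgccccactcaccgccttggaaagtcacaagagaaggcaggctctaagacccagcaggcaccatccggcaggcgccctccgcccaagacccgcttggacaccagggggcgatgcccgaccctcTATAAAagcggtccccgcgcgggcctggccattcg
Cebpb: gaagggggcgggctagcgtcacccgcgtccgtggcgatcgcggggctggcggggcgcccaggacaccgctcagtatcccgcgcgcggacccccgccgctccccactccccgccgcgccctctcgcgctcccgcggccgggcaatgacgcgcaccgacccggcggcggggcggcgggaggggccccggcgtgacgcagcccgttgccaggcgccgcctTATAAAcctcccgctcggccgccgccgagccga
Each held the letters TATAAA once, ending 30 and 28 bases before the start, a match found on either strand in 12.9% of 33469 RefSeq promoter windows of the same length. Neither window held the GR half-site AGAACA (17.5% of all windows), the palindromic GR element that contains it (0.012%) or the C/EBP letters TTGCNNAA (9.22%), on either strand. G and C made up 67.2% of the Cebpa window and 80.0% of the Cebpb window.

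For Hnf4a, pSer2 Pol2 lay over the region of its downstream start, and its level moved little. The gene has alternative promoters, of which the downstream one is the principal promoter in adult liver. Across the region that begins at the upstream start (chr3:159902441-159912441, plus strand), values were 0.71 to 1.22 in all 10 libraries, next to the floor of this measure. Across the region that begins at the downstream start, 34415 b further along (chr3:159936856-159946856), they were 10.11 and 9.93 in VEH, 10.25 and 10.11 in PEAK_140, 10.06 and 10.09 in NADIR_180, 10.92 and 10.46 in CONS_140 and 10.75 and 10.42 in CONS_180. All 4 CONS libraries lay above the 6 VEH and PULS libraries, by 0.67 ± 0.27 in CONS_140 against VEH (adjusted p = 0.536), and no comparison was called with or without the block. The promoter pair is shown because occupancy separated the 2 starts. Sequences are the 250 bases before each start in RefSeq (GRCr8, plus strand, chr3:172605970-172606219 and chr3:172641586-172641835), with motif matches in capitals.
Hnf4a upstream start: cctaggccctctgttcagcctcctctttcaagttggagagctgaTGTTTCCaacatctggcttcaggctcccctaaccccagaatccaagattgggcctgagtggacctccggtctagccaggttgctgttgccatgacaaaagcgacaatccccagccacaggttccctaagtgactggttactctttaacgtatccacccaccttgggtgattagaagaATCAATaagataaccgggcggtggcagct
Hnf4a downstream start: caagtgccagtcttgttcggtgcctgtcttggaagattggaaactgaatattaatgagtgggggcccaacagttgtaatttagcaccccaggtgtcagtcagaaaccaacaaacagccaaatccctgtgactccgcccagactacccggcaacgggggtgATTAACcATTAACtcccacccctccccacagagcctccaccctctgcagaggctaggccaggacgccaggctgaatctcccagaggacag
The upstream window held 1 forkhead match, TGTTTNC (18.3% of all windows), and 1 Onecut match, ATTGAT (7.1%). The downstream window held neither string of letters. It carried the HNF1 half-site GTTAAT at 2 positions (6.45%), with both motifs of homeodomain factors read from the opposite strand. It also held ACAAACA, which reads TGTTTGT from the opposite strand and differs from TGTTTNC in the last letter. Variants of the letters were not searched, so the lack of a match does not mean the lack of a forkhead site. Neither held AGAACA or the HNF4 letters CAAAGNNCA (5.22%). None of the motif letters overlapped another match in these windows.

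The forkhead genes differed from each other. Foxa2 (chr3:142383278-142387481) was at 7.47 and 6.98 in VEH, 6.03 and 4.81 in PEAK_140, 7.33 and 6.37 in NADIR_180, 7.19 and 6.25 in CONS_140 and 7.04 and 5.96 in CONS_180. Neither PEAK_140 library reached the lower VEH value. The difference from VEH was -1.80 ± 0.55 (adjusted p = 0.306), which was called with the block (adjusted p = 0.0113, 1.52% of genes called, against 1.02% without it). Foxa3 (chr1:79920752-79930263, minus strand) ranged from 7.75 to 8.87 over the 10 libraries, with overlapping groups and no call.

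Onecut1, which encodes the homeodomain factor HNF6, showed the widest swings, and with opposite time courses under the infusions. Its pSer2 Pol2 (chr8:81766041-81776041) was 9.39 and 8.88 in VEH, 10.47 and 9.94 in PEAK_140, 8.59 and 7.52 in NADIR_180, 7.46 and 5.16 in CONS_140 and 10.56 and 9.85 in CONS_180. Thus it was high at 140 min and low at 180 min with pulses, and low at 140 min and high at 180 min with constant CORT. No library of CONS_140 reached any library of another group, although the CONS_140 pair itself differed by more than 2 log2 units. The values of PEAK_140 and CONS_180 overlapped.

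In the fit without the block none of these Onecut1 differences passed. CONS_140 lay below VEH by -2.83 ± 0.64 (adjusted p = 0.0955, and 0.00650 with the block). PEAK_140 exceeded CONS_140 by 3.89 ± 0.64 (adjusted p = 0.0711, and 0.0115 with the block) and exceeded NADIR_180 by 2.15 (adjusted p = 0.354, and 0.0457 with the block). CONS_140 lay below CONS_180 by -3.90 (adjusted p = 0.236, and 0.0141 with the block). The shares of genes called with the block in these comparisons were 1.32%, 0.709% and 0.0303% for PEAK_140 against CONS_140, PEAK_140 against NADIR_180 and CONS_140 against CONS_180, and 0.0303%, 0.509% and 0% without it. No GR region lay within 50 kb of the Onecut1 start.

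Hhex (chr1:256101903-256107649) shared part of this pattern. It was at 9.52 and 9.09 in VEH, 9.82 and 9.66 in PEAK_140, 8.87 and 7.82 in NADIR_180, 9.64 and 9.38 in CONS_140 and 10.85 and 10.15 in CONS_180. NADIR_180 was below every other group and CONS_180 above every other group. CONS_180 exceeded NADIR_180 by 2.15 ± 0.39 (adjusted p = 0.0752, and 0.0227 with the block, with 0.176% and 0.212% of genes called). Prox1 (chr13:108382399-108392399, first 10 kb) was 8.87 and 8.66 in VEH, 7.84 and 7.86 in PEAK_140, 8.91 and 8.83 in NADIR_180, 9.52 and 8.98 in CONS_140 and 8.78 and 8.26 in CONS_180. Its PEAK_140 libraries lay below all other libraries, and the difference between PEAK_140 and CONS_140 was -1.40 (adjusted p = 0.142, and 0.0486 with the block).

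**Figure D4:**
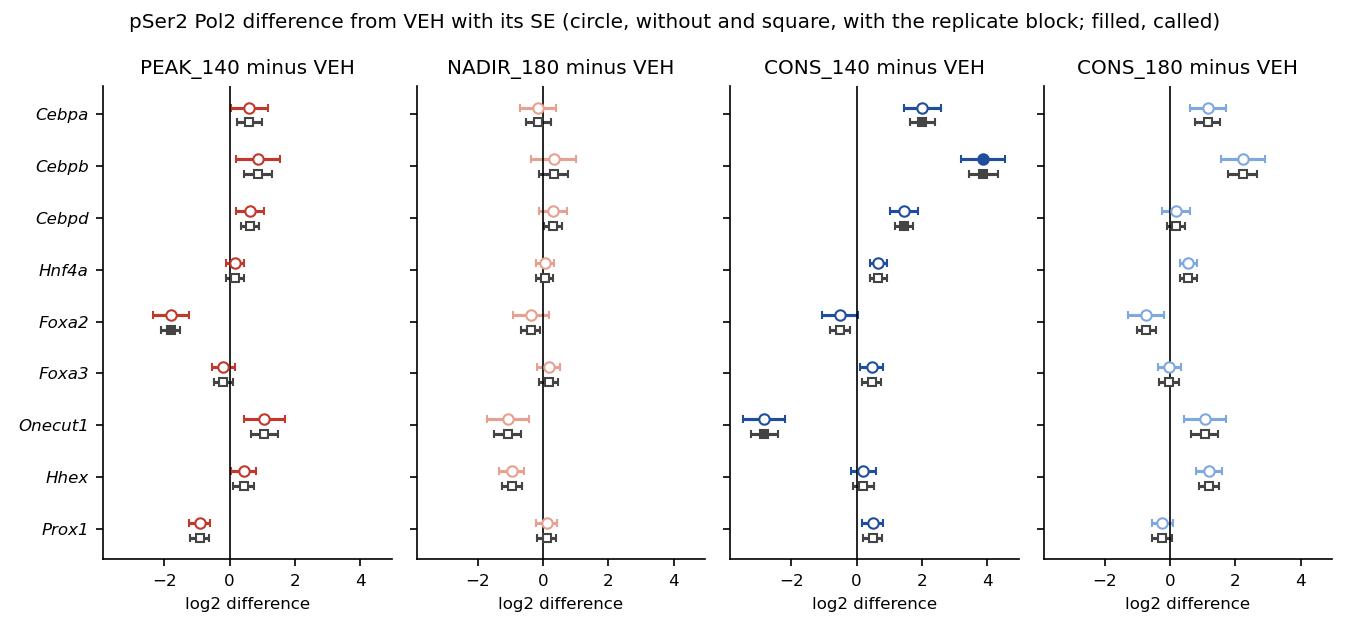
pSer2 Pol2 difference from VEH (log2, x axis, with its SE) of the 9 genes in 4 comparisons that share the VEH libraries, fitted without (circles) and with (squares) the replicate block, with filled symbols for calls. Without the block only Cebpb in CONS_140 is called, and with it Cebpa, Cebpd and Onecut1 in CONS_140 and Foxa2 in PEAK_140 are called as well.

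NADIR_180 against VEH gave no call among the 9 genes (0.00606% of genes) and nor did CONS_180 against VEH (0.236%), with the block (0.00606% and 0.382%) or without it. At an unadjusted p below 0.05, 555 and 1125 of 38315 regions differed in the fits without it. The difference between the PULS and CONS time courses, a contrast added after the values were seen, gave no call without the block (0.0667% of genes). With it Onecut1 was called (6.04 ± 0.59, adjusted p = 0.00252, 0.261% of genes).

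RNA at 180 min was measured for 6 of the genes, and none was called in any of the 5 comparisons by edgeR. The shares called among 14092 genes were 4.23% for PULS CORT against PULS VEH, 9.2% for CONS CORT against CONS VEH, 0.887% for CONS CORT against PULS CORT, 0% for CONS VEH against PULS VEH and 0.0284% for the difference between the CONS and PULS responses. DESeq2 also called none of the 6 genes in these comparisons. For the vehicle comparison, in which no gene was called, 1286 genes had an unadjusted p below 0.05.

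Foxa2 was the nearest to a uniform change. It stood at 4.89, 8.31 and 4.15 CPM in PULS VEH and at 2.12, 2.97 and 3.98 CPM in PULS CORT, and at 3.18, 4.19 and 5.43 CPM in CONS VEH and 1.22, 2.53 and 2.69 CPM in CONS CORT. Neither CORT group overlapped its own vehicle group, but the share of all genes with such a separation was not counted and neither difference was called. The differences were -0.96 ± 0.36 (adjusted p = 0.133) and -0.92 ± 0.36 (adjusted p = 0.118) on 6 to 44 reads per library. Prox1 was 165, 125.2 and 171 CPM in PULS VEH and 112, 95.9 and 124.8 CPM in PULS CORT, a difference of -0.47 ± 0.17 (adjusted p = 0.119), whereas CONS CORT and CONS VEH overlapped (0.01 ± 0.17). Foxa3 was 7.09, 7.27 and 5.43 CPM in CONS VEH and 8.53, 12.5 and 8.42 CPM in CONS CORT (0.59 ± 0.24, adjusted p = 0.128).

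**Figure D5:**
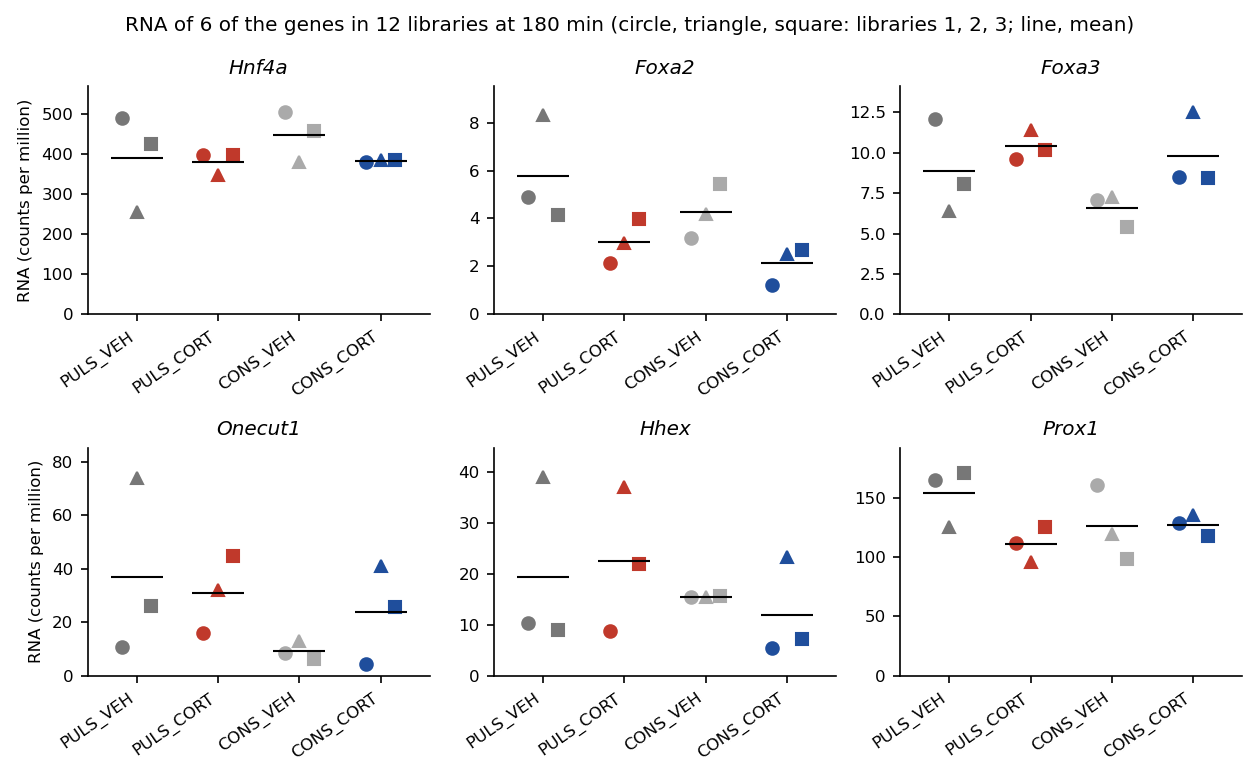
RNA (CPM, y axis) of the 6 genes with counts in the 12 libraries at 180 min by group (x axis), with 3 symbols for the libraries and lines for the group mean. Hnf4a lies between 254 and 505 CPM, and single libraries of Onecut1 and Hhex stand far above the others of their group.

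Onecut1 and Hhex RNA spread widely among the libraries of a group. Onecut1 was 10.9, 74.0 and 25.9 CPM in PULS VEH, 16, 31.9 and 44.7 CPM in PULS CORT, 8.43, 12.8 and 6.15 CPM in CONS VEH and 4.27, 41.1 and 25.8 CPM in CONS CORT. Hhex was 10.3, 39.1 and 8.92 CPM in PULS VEH, 8.85, 37.1 and 21.9 CPM in PULS CORT, 15.5, 15.4 and 15.6 CPM in CONS VEH and 5.48, 23.4 and 7.17 CPM in CONS CORT. Library 2 was the highest for both genes in PULS VEH and in CONS CORT. The Onecut1 difference was 1.45 ± 0.67 for CONS CORT against CONS VEH (adjusted p = 0.191) and -2.04 ± 0.66 between the vehicle groups (unadjusted p = 0.00715, adjusted p = 0.383). With every gene of at least 1 read kept, the former was called (adjusted p = 0.048). Hnf4a was 489, 254 and 425 CPM in PULS VEH, 396, 348 and 397 CPM in PULS CORT, 505, 379 and 458 CPM in CONS VEH and 379, 384 and 385 CPM in CONS CORT, with differences from vehicle of -0.03 ± 0.18 and -0.23 ± 0.18.

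At 180 min both readouts can be set side by side for the 6 genes. For Hhex, pSer2 Pol2 was higher in CONS_180 than in NADIR_180 by 2.15 while RNA of CONS CORT against PULS CORT differed by -0.82 ± 0.57. For Onecut1 the values were 2.15 and -0.32 ± 0.61, and for Foxa2 they were -0.35 and -0.43 ± 0.40. They were 0.51 and 0.01 ± 0.18 for Hnf4a, -0.35 and 0.20 ± 0.17 for Prox1 and -0.20 and -0.06 ± 0.23 for Foxa3. None of these RNA differences passed the test. Of the pSer2 Pol2 differences, Hhex passed with the replicate block alone, and Onecut1 did not pass (adjusted p = 0.802, and 0.112 with the block).

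Other liver-enriched transcription factors were examined as a list of 20 genes, of which 19 passed the read filter in RNA (Cebpe did not) and 20 were tested in pSer2 Pol2. With PULS CORT, 3 were lower in RNA and 0 higher (2.44% of all genes lower). Onecut2, the paralogue of Onecut1, went from 60.3, 80.2 and 77.6 CPM in PULS VEH to 30.8, 40.3 and 38.0 CPM in PULS CORT (-1.0 ± 0.23, adjusted p = 0.0185). Onecut2 was 71.0, 36.6 and 38.0 CPM in CONS VEH, with 2 libraries at the level of PULS CORT, and 45.7, 44.8 and 29.7 CPM in CONS CORT. Gata4 changed by -0.70 ± 0.18 (adjusted p = 0.0359) and Tbx3 by -1.08 ± 0.28 (adjusted p = 0.0328). Neither Onecut2 nor Gata4 was called between CONS CORT and CONS VEH. With CONS CORT, 2 were higher and 1 lower (4.45% and 4.75% of all genes). Ppara, the receptor that drives fatty acid oxidation, was 147, 49.4 and 81.4 CPM in CONS VEH and 303, 282 and 207 CPM in CONS CORT (1.5 ± 0.28, adjusted p = 0.00197). Nr0b2, a repressor of bile acid synthesis, rose by 1.39 ± 0.42 (adjusted p = 0.0369) and Tbx3 fell by 1.06 on the log2 scale (adjusted p = 0.0162). Between the CORT groups, Ppara (1.25 ± 0.28, adjusted p = 0.0482) and Nr5a2 (0.82 ± 0.16, adjusted p = 0.0210, named after its value was seen) were higher in CONS CORT (0.617% of all genes higher). In pSer2 Pol2, Nr0b2 alone of the 20 was called against VEH, in CONS_140 (2.66 ± 0.35, adjusted p = 0.00553). Of all genes 1.02% were called in PEAK_140, 0.00606% in NADIR_180, 0.824% in CONS_140 and 0.236% in CONS_180.

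Hepatocyte products, the genes such factors serve, were a further list of 20 genes, of which 19 passed the read filter in RNA (G6pc did not). With PULS CORT 3 were higher and 0 lower in RNA, and with CONS CORT 3 were higher and 1 lower. Over all genes 1.79% were called higher and 2.44% lower with PULS CORT, and 4.45% and 4.75% with CONS CORT. Tat, the classical glucocorticoid-induced tyrosine aminotransferase, rose by 1.41 ± 0.29 with PULS CORT (adjusted p = 0.0106) and by 1.82 ± 0.30 with CONS CORT (adjusted p = 0.000631). Pck1 of gluconeogenesis rose by 1.00 ± 0.17 (adjusted p = 0.00305) and 0.91 ± 0.17 (adjusted p = 0.00208), and Cps1 of the urea cycle by 0.97 ± 0.14 (adjusted p = 0.000722) and 1.18 ± 0.14 (adjusted p = 3.37e-05). Cyp7a1, the rate-limiting enzyme of bile acid synthesis, was lower with CONS CORT (-0.89 ± 0.27, adjusted p = 0.0417). In pSer2 Pol2, Fabp1 was lower than VEH in PEAK_140 (-3.23 ± 0.43, adjusted p = 0.00544) and in CONS_140 (-4.79 ± 0.43, adjusted p = 0.000618). Ttr was lower in PEAK_140 (-1.73, adjusted p = 0.0101) and Hpx in CONS_140 (-1.74, adjusted p = 0.0124), whereas Cps1 (1.29, adjusted p = 0.0231) and Cyp7a1 (2.25, adjusted p = 0.0211) were higher in CONS_140. No product was called against VEH in NADIR_180 or CONS_180. The shares of all genes called in pSer2 Pol2 were 1.02% in PEAK_140, 0.824% in CONS_140, 0.00606% in NADIR_180 and 0.236% in CONS_180. The median RNA difference of the list was 0.09 with PULS CORT and -0.20 with CONS CORT, beside -0.01 over all genes in both.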

How the data were processed

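Chromatin libraries of liver were sequenced for GR and pSer2 Pol2 (2 per group) and RNA libraries at 180 min (3 per group). Per the labels and the study's methods, the authors trimmed reads with Trimmomatic 0.36, aligned them to rn6, removed duplicates, counted tags with HOMER 4.9.1, subtracted input and deposited log2 values from a regularised DESeq2 transformation. The pSer2 Pol2 regions were limited to the first 10 kb of each transcript. For the peak lists, the authors called sites with HOMER, filtered them for concordance between replicates and deposited 1 merged list of start and end positions per group. RNA reads were aligned with STAR and the authors deposited raw counts per gene from featureCounts 1.6.2.

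Deposited log2 values were tested with limma 3.58.1 (trended variance, all 10 libraries of an assay) and counts with edgeR 4.0.16 (quasi-likelihood test, TMM, more than 10 reads over the 12 libraries). Adjusted p are Benjamini-Hochberg values over all features of the assay, and a call needed 0.05 and a 1.5-fold change. The SE of an RNA difference is its size divided by the square root of the F statistic. Software ran in R 4.3.3, with DESeq2 1.42.0 as an alternative. Alternatives were other normalisations, filters and thresholds, the libraries compared alone, the replicate block and each library left out.

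Members and lists were chosen with earlier results of these data known. All 9 members and all GR regions within 50 kb were named, and list genes where called against vehicle. Library numbers come from the sample titles, except that the VEH libraries carry none and were numbered in accession order as names only. The second GR library of CONS_140 has an irregular number in its title and was read as library 2. Same-numbered pSer2 Pol2 libraries deviated together (correlation of deviations from group means 0.155 to 0.553 in 6 pairs of groups, the libraries of a pair being mirror images), so they were taken as paired, with the VEH libraries outside the block. The GR (-0.027 to 0.072) and RNA (-0.049 to 0.081) numbers did not pair the libraries. Promoters were matched by symbol in RefSeq (GRCr8) for 6 of 9 members.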

Additional observations from a re-analysis of the deposited data

Results flagged for a closer look

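The change from 140 to 180 min differed between the infusions at 7 of the 15 GR regions, by a contrast of the PULS and CONS time courses that was added after the values were seen (limma, 44% of all regions called). At Cebpa it was 5.85 on the log2 scale at -32278 b (adjusted p = 0.0145) and 4.81 at 45799 b (adjusted p = 0.0160). At Hnf4a it was 3.81 at -7982 b (adjusted p = 0.0166) and 7.10 at 30587 b (adjusted p = 0.0223). At Hhex it was 3.10 at 7637 b (adjusted p = 0.00782), 7.04 at 19988 b (adjusted p = 0.00582) and 4.03 at 35645 b (adjusted p = 0.0132). A positive value means that GR fell further with pulses than with constant CORT, or fell with pulses while it rose with constant CORT. Because most GR regions overlapped a PEAK_140 peak and few a NADIR_180 peak, a positive value was in part set by how the regions were chosen. CONS_140 minus CONS_180 was -0.91 and 0.66 at these Cebpa regions and 0.40 and -2.73 at these Hnf4a regions. At the Hhex regions it was -0.54, -1.69 and -0.53, and none of these was called. At Hnf4a 30587 b the CONS_140 libraries read 3.55 and -1.15, the latter near the floor. The count was 4 without library 1 of PEAK_140, 3 and 4 without library 1 and library 2 of CONS_180, and 0 with libraries centred on their medians or quantile normalised. The median near the 9 genes was 3.54 and over all regions 3.11.

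In pSer2 Pol2, Onecut1, Hhex and Prox1 moved in opposite directions between the times under PULS and CONS, with no overlap between the libraries of the times. The share of all genes that do so was not counted, and the median contrast over all regions was -0.30. The contrast was 6.04 for Onecut1 (adjusted p = 0.0513), 2.38 for Hhex (adjusted p = 0.213) and -1.75 for Prox1 (adjusted p = 0.281) in limma, so none passed. With the replicate block Onecut1 passed (adjusted p = 0.00252) and Hhex did not (adjusted p = 0.0682).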

How the results depend on the processing

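Of 446 alternative counts, 382 stayed within 1.5 times the reported count. GR calls rested on the scaling. With libraries centred on their medians, calls were 3 for PEAK_140, 1 for CONS_140 and 2 for CONS_180 against VEH, and 0 for PEAK_140 and CONS_180 against NADIR_180 and for the time-course contrast. With quantile normalization they were 5, 4, 5, 1, 1 and 0, respectively. Centring removes the median shift of all regions. It turned the PEAK_140 difference from VEH to -0.82 (Cebpa GR1382), -1.60 (Cebpb GR2685), -0.65 (Hhex GR1352), -0.24 (Hnf4a GR135), -0.0186 (Hnf4a GR1668), -0.26 (Prox1 GR2463) and -1.97 (Prox1 GR2746), and quantile normalization to -0.32 (GR1382), -1.34 (GR2685) and -1.29 (GR2746). Against NADIR_180, GR1352 became -0.88 and -0.15 and GR2746 -1.5 and -1.13 under the respective scalings, and the contrast at GR1352 became -0.29 when centred. At an adjusted p of 0.01, calls were 6, 4 and 2 for PEAK_140 and CONS_180 against NADIR_180 and the contrast. The regions above the median level gave 1 for NADIR_180 against VEH, and the compared libraries alone gave 2 for PEAK_140 against CONS_140.

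Leaving out 1 library gave GR counts of 9 to 12, 0 to 4, 7 to 12 and 7 to 13 for PEAK_140, NADIR_180, CONS_140 and CONS_180 against VEH, 6 to 13 and 3 to 9 for PEAK_140 and CONS_180 against NADIR_180, 0 to 3 for PEAK_140 against CONS_140 and 3 to 10 for the contrast.

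In pSer2 Pol2 the replicate block gave 1 member for PEAK_140 and 4 for CONS_140 against VEH, 1 each for PEAK_140 and CONS_180 against NADIR_180, 3 for PEAK_140 against CONS_140 and 1 each for CONS_140 against CONS_180 and the contrast; it changed no other call. For CONS_140 against VEH, 0 were called at 0.01, without the trend or in the compared libraries alone, and 2 when centred, quantile normalised or in the regions above the median level. Centring gave 1 for both comparisons with NADIR_180, for PEAK_140 against CONS_140 and for CONS_140 against CONS_180, and 2 for the contrast. Quantile normalization gave 1 for PEAK_140 against NADIR_180, PEAK_140 against CONS_140 and the contrast. The regions above the median level gave 1 for CONS_180 against NADIR_180 and CONS_140 against CONS_180, and 2 for PEAK_140 against CONS_140 and the contrast. Leaving out 1 library gave 0 to 3 for PEAK_140 against CONS_140 (3 without library 2 of CONS_140) and the contrast, and 0 to 2 for CONS_140 against VEH and against CONS_180. In RNA, 1 member was called for CONS CORT with no filter beyond 1 read. Unless stated, the cause was not tested.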
